A study of Mus musculus with 2 samples.

Results

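Malat1 and Neat1 are adjacent long noncoding RNA genes whose transcripts stay in the nucleus, and they were examined here together with 6 genes for proteins that gather around Neat1 RNA. The 8 genes, Malat1, Neat1, Sfpq, Nono, Pspc1, Tardbp, Rbm14 and Matr3, were taken by symbol from a table of 46095 genes, and all 8 were found. The libraries came from C3H10 cells, a mouse mesenchymal precursor line that can become adipocytes, labelled as strain C57BL/6 although the name of the line refers to C3H mice. One library was made from cells given an ASO against MALAT1 and 1 from cells given the negative control ASO (NC). ASOs are antisense oligonucleotides, which pair with an RNA and mark it for cleavage. Both ASOs were transfected at 100 nM, the medium was changed after 8 h, and confluent cells received the adipogenic cocktail of isobutyl-1-methylxanthine, dexamethasone, troglitazone and insulin for 2 days, then insulin alone. Cells were examined at differentiation day 6. The study designed more than 1 ASO against MALAT1, and the sources used here do not say with which of them the knockdown library was made.

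Malat1 RNA collects in nuclear speckles, domains rich in splicing factors. Neat1 RNA is the scaffold of a different domain, the paraspeckle, which forms beside speckles and holds back some RNAs and proteins. SFPQ, NONO and PSPC1 are the 3 mammalian DBHS proteins (Drosophila behaviour, human splicing), which pair with each other and coat Neat1. RBM14 is needed for paraspeckle assembly, TDP-43 (from Tardbp) binds Neat1 and many introns, and MATR3 is a nuclear matrix protein that binds SFPQ and NONO.

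Neither Malat1 nor the long form of Neat1 ends in a normal poly(A) tail. Each is cut by RNase P, and an A-rich stretch written in the gene folds back on U-rich stretches to form a triple helix that caps the end. Library preparation began with rRNA depletion, so capture did not need a poly(A) tail. The RNA ends are shown because both RNAs are capped in this way. In the GENCODE M21 transcripts of build GRCm38, capitals mark the runs of at least 10 bases that both 120-base ends hold in the same order, with T standing for U. The Malat1 end is chr19:5795982-5796101 and the Neat1 end chr19:5824708-5824827, both on the minus strand. Next to the Malat1 end lies mascRNA at chr19:5795924-5795981, the small tRNA-like RNA that the cut releases.
Malat1 end: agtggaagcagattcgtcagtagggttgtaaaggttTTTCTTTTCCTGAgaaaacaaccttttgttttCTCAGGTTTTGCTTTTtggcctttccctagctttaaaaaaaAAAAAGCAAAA
Neat1 end: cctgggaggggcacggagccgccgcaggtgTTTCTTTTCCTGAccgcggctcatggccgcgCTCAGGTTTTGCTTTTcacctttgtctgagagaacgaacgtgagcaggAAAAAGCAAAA
mascRNA: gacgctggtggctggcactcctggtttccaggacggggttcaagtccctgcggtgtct

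The ends shared 3 such runs, 40 bases in all, of which TTTCTTTTCCTGA and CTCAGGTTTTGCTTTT are U-rich and AAAAAGCAAAA is the A-rich end itself. Searched on the RNA strand only, the last 120 bases of the longest transcript of 51034 genes held the first run in 0.00392% of genes, the second in 0.00196% and the third in 0.0588%. The Neat1 end was the only 1 of these with all 3, and the Malat1 run lies upstream of the annotated transcript end, so Malat1 is not among them. These are matches of letters and say nothing about how much RNA was present.

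Depth was 58147539 counts in the control and 61653549 in the knockdown library, and 17356 genes with at least 10 counts over both were compared. Levels are TMM-scaled CPM, the share of a library's counts on a common scale. The log2 fold change is knockdown over control with a prior count of 0.5. Its 95% Clopper-Pearson interval covers counting error only. With 1 library per condition no difference has a replicate check, no p-value is given, and a gene is called past the threshold only by size, at 2-fold in either direction.

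Malat1, the target, was lower in the knockdown library by far more than the other 7 genes. It had 170402 counts (2953 CPM) in the control library and 45396 counts (731 CPM) in the knockdown library. The library given the MALAT1 ASO was thus the low one, as its label states. The log2 fold change was -2.01, or 24.7% of the control level. Its 95% counting interval began at 24.5% of the control level and was under 1 percentage point wide. By number of counts Malat1 stood at place 18 of all genes in the control library and place 136 in the knockdown library. The count is summed over the whole gene of 6983 bases, chr19:5795690-5802672 on the minus strand, so whole RNA and pieces left by cleavage are not told apart.

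Malat1 was the 1 member of 8 past the 2-fold threshold. Over all 17356 genes, 9.85% were past it in either direction and 6.02% in the lower direction. The share past it was smaller where counts were high. Of 8251 genes with a mean of at least 1000 counts, the class all 8 members belong to, 0.739% were at least 2-fold lower. In that class 1 gene, Atp6v1e1, a subunit of the proton pump of lysosomes, had a lower log2 fold change than Malat1, at -3.60 (2581 and 228 counts). Within that class the 4 genes nearest to Malat1 in log2 fold change were Retn at -1.99, Gpd1 at -1.91, Mrap at -1.89 and Acer2 at -1.80. Retn encodes the adipokine resistin and Gpd1 an enzyme that makes the glycerol backbone of triglycerides. With 1 library per condition this likeness is a single difference and not a pattern over samples.

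Neat1, the scaffold RNA of paraspeckles, was also lower in the knockdown library, but by less. It had 163466 counts (2833 CPM) in the control library and 126386 counts (2034 CPM) in the knockdown library. The log2 fold change was -0.48 (95% interval -0.49 to -0.47), or 71.8% of the control level. Of the 8251 genes with a mean of at least 1000 counts, 4.17% had a lower value than Neat1. Among the 45 genes with a mean of at least 100000 counts, Malat1 was the lowest and Neat1 the fourth lowest, after Fabp4 at -1.37 and Aldoa at -0.66. Fabp4 encodes a fatty acid carrier of adipocytes and Aldoa a glycolytic enzyme.

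**Figure D1:**
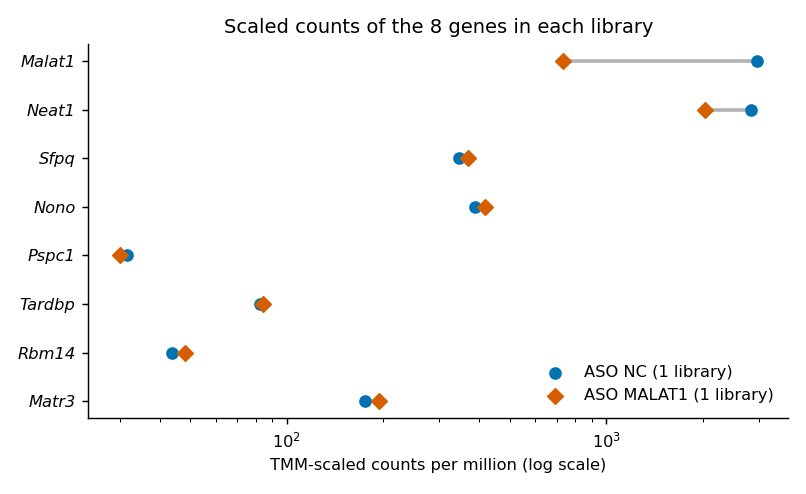
TMM-scaled CPM of each of the 8 genes on a log axis, with a circle for the control library, a diamond for the knockdown library and a line joining them. Malat1 goes from 2953 to 731 and Neat1 from 2833 to 2034, while the symbols of the 6 protein genes nearly touch.

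A ratio of counts within a library does not depend on the scaling. Malat1 had 1.04 times the counts of Neat1 in the control library and 0.359 times in the knockdown library. The change of this ratio was -1.54 on the log2 scale (95% counting interval -1.56 to -1.52). Xist, the nuclear RNA that silences an X chromosome, is a similarly counted lncRNA outside the group. Xist stood at -0.04 (log2) with 169660 and 177235 counts. Malat1 had about as many counts as Xist in the control library and 0.256 times as many in the knockdown library, and Neat1 went from 0.963 to 0.713. Both RNAs were thus lower against Xist, and Malat1 was lower against Neat1.

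The Neat1 gene spans 20771 bases, chr19:5824708-5845478, also on the minus strand. The gene makes a short form that matches the first part of the long form, and the table has 1 row for both, so the forms were not told apart. Only the long form builds paraspeckles. Whether the lower Neat1 count lies in the short or the long form was not tested.

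The 6 protein genes differed little between the libraries. Their log2 fold changes ran from -0.07 to 0.15, with a median of 0.10 against 0.01 for the 8251 genes with a mean of at least 1000 counts and -0.00 for all genes tested. In sum they had 61607 counts, or 0.106% of the control library, and 70956 counts, or 0.115% of the knockdown library. In GRCm38 they lie on 5 chromosomes, with Sfpq at chr4:127021324-127037013, Tardbp at chr4:148612382-148627019, Nono at chrX:101429318-101448591, Pspc1 at chr14:56720710-56778316, Rbm14 at chr19:4800569-4811634 and Matr3 at chr18:35562138-35593835. None was past the threshold, and 5 of 6 were on the higher side in the knockdown library, with Tardbp among them at only 0.02. Of the 8251 genes, 4380 were on the higher side and 0.739% were at least 2-fold lower.

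Sfpq, a DBHS protein gene required for paraspeckles, had 19998 counts (347 CPM) in the control library and 22924 counts (369 CPM) in the knockdown library. Its log2 fold change was 0.09 (95% interval 0.06 to 0.12). Nono, the usual partner of SFPQ, had 22340 counts (387 CPM) and 25839 counts (416 CPM), which is 0.10 on the log2 scale (95% interval 0.08 to 0.13). The pair kept nearly the same proportion, with 1.12 Nono counts per Sfpq count in the control library and 1.13 in the knockdown library. The change of that ratio was 0.01 on the log2 scale, with an interval of -0.02 to 0.05.

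Pspc1, the third DBHS gene and the least counted member, had 1823 counts (31.6 CPM) in the control library and 1871 counts (30.1 CPM) in the knockdown library. Its log2 fold change was -0.07 with an interval of -0.16 to 0.02, so no difference was detectable at this depth. It was the 1 protein gene on the lower side. Relative to Sfpq, Pspc1 counts went from 0.0912 to 0.0816, a log2 change of -0.16 (95% counting interval -0.26 to -0.06). Relative to Nono the log2 change was -0.17 (95% counting interval -0.27 to -0.08). The DBHS genes thus did not keep one proportion within counting error, although the shift was small and has no replicate check.

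Rbm14 had 2527 counts (43.8 CPM) in the control library and 2976 counts (47.9 CPM) in the knockdown library, which is 0.13 on the log2 scale (95% interval 0.05 to 0.21). Tardbp had 4775 counts (82.7 CPM) and 5228 counts (84.1 CPM), a log2 fold change of 0.02 whose interval of -0.03 to 0.08 holds 0. Matr3 had 10144 counts (176 CPM) and 12118 counts (195 CPM), and its log2 fold change of 0.15 (95% interval 0.11 to 0.19) was the highest of the 8. These values lie close to the bulk of comparable genes. The middle 50% of genes with a mean of at least 1000 counts ran from -0.11 to 0.13, and 21.1% of them were above Matr3.

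Counting error alone was a weak yardstick in these libraries. The interval excluded 0 for 6 of the 8 members, all but Pspc1 and Tardbp, and for 53.1% of all genes tested. For genes with a mean of at least 1000 counts it excluded 0 in 69.1%. It lay above 0 for 4 of the 8 members, Sfpq, Nono, Rbm14 and Matr3, and for 37.3% of that class. All 4 are among the 6 protein genes, a larger share than in the class, on differences of at most 0.15 that have no replicate check.

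**Figure D2:**
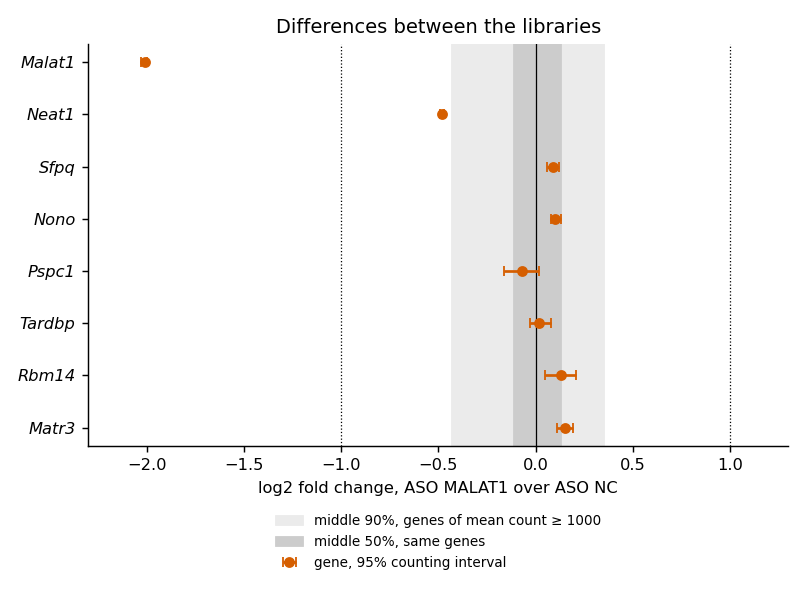
Log2 fold change of each of the 8 genes, knockdown over control, with 95% counting intervals, dotted lines at 2-fold, and bands for the middle 50% and middle 90% of genes with a mean of at least 1000 counts. Malat1 at -2.01 lies far outside both bands, Neat1 at -0.48 lies just outside the wider band, whose lower edge is -0.43, and 4 of the 6 protein genes lie in the narrower band with Rbm14 and Matr3 just past its upper edge.

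**Figure D3:**
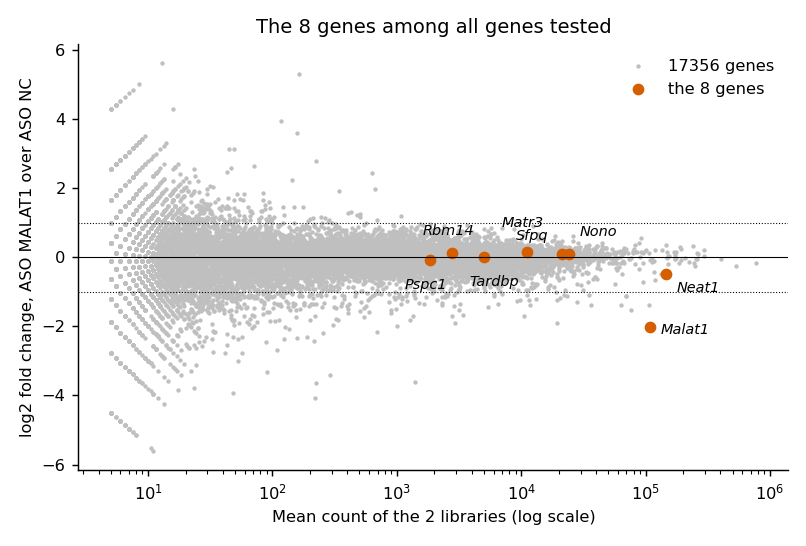
Log2 fold change against mean count, on a log axis, for the 17356 genes compared, with the 8 genes in colour and dotted lines at 2-fold. The cloud narrows as counts increase, and Malat1 lies well below it at the right while the 6 protein genes lie inside it.

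Levels of different genes were compared per length, as RPKM, which is CPM divided by exon length in kilobases, on the merged exons of GENCODE M21. In the control library Malat1 had the highest level at 423 RPKM, followed by Neat1 at 136, Nono at 88.5 and Sfpq at 73.1. Matr3 at 17.3, Rbm14 at 11.2, Tardbp at 10.6 and Pspc1 at 5.51 formed the lower group. In the knockdown library Malat1 stood at 105 RPKM, Neat1 at 97.9 and Nono at 95.1, so the 2 lncRNAs and Nono were at about one level per length. The order of the upper genes depends on the length used. With the longest transcript as the length, Nono at 151 RPKM stood above Neat1 at 136 in the control library, and in the knockdown library Nono at 162 stood above Sfpq at 106, Malat1 at 105 and Neat1 at 97.9. The level of Neat1 is averaged over its long form.

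Some reads could belong to more than 1 gene, since the counting rules are not given in the sources used here. Nono shares 1419 bases at 97.2% identity with the copy Gm8806, which had 94 and 107 counts, few beside those of Nono. Tardbp overlaps Masp2, a complement protease gene on the opposite strand, which had 181 counts in the control library and 118 in the knockdown library. The read-through gene Gm21992 overlaps Rbm14 and had 0 counts in both libraries. A stretch of 207 bases of Matr3 matches Emb, a cell adhesion gene, at 95.2% identity. Emb had 2680 and 3082 counts, beside 10144 and 12118 for Matr3. Whether reads of one gene were counted for the other was not tested.

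Malat1 and Neat1 lie side by side on chromosome 19, so the genes around them were compared by the same measure. Of the 10 tested genes on each side of Malat1, 1 of 20 was past the threshold, against 9.85% of all genes tested. A mean of at least 1000 counts was reached by 14 of the 20, and in that class 0.739% of genes were at least 2-fold lower. The gene past the threshold was Slc22a20, also in that class, with 1588 counts in the control library and 793 in the knockdown library. Its log2 fold change was -1.11 (95% interval -1.23 to -0.98), and it encodes an organic anion transporter 168 kb away. The noncoding gene Gm31719 overlaps it and had 28 and 22 counts. The 20 genes had a median of 0.01, near the -0.00 of all genes tested, but the values differed between the sides. The 10 towards lower coordinates had a median of 0.02 with 8 on the higher side. The 10 on the Neat1 side, Neat1 included, had a median of -0.17 with 7 on the lower side. On the Neat1 side the interval lay below 0 for 3 genes, Neat1 among them, and above 0 for 1. Towards lower coordinates it lay below 0 for 2 and above 0 for 4. The interval excluded 0 for 53.1% of all genes tested and for 69.1% of those with a mean of at least 1000 counts. The difference between the sides was not tested.

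The genes nearest to Malat1 towards lower coordinates had small values of either sign. Ltbp3, a latent TGF-beta binding protein gene 37.2 kb towards lower coordinates, stood at -0.07 (log2) with 18665 and 19115 counts, and Sssca1 at 0.21. Fam89b was at 0.07 and Ehbp1l1 at -0.16. Malat1 is on the minus strand, so these genes lie beyond its 3′ end, and their values range on both sides of 0.

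On the other side Neat1 was nearest, at 22.0 kb, and was the lowest of the 5 genes there. Frmd8, just past Neat1 at 48.3 kb, stood at -0.02 with 4627 and 4918 counts. Dpf2, a subunit of BAF chromatin remodelling complexes, was at -0.03. Slc25a45, with 701 and 610 counts, was at -0.31 (95% interval -0.47 to -0.15), and Tigd3 at 0.22 had an interval from -0.26 to 0.71 on 66 and 83 counts.

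**Figure D4:**
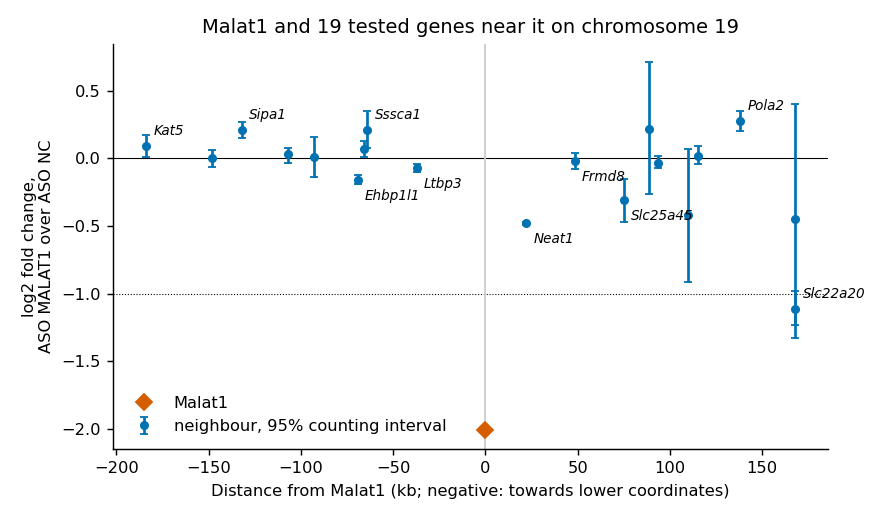
Log2 fold change, with 95% counting intervals, of 19 of the 20 tested genes nearest to Malat1 against their distance from it in kilobases, with a diamond for Malat1 and a dotted line at 2-fold lower. Malat1 stands at -2.01, Neat1 at -0.48 and Slc22a20 at -1.11, while Ltbp3 and Frmd8 lie at -0.07 and -0.02.

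A list of 40 further proteins found at paraspeckles was written from general knowledge. Of these, 36 had enough counts to compare, and 0 were past the threshold in either direction, against 9.85% of all genes tested. Their median was 0.07, against -0.00 for all genes tested. Of the 36, 32 had a mean of at least 1000 counts. In that class the median was 0.01, and 0.739% of genes were at least 2-fold lower. The 4 of the 40 that were not compared were Celf6, Runx3, Dlx3 and Bcl11a, with at most 4 counts in a library. By sign, 22 were on the higher and 14 on the lower side. In the class with a mean of at least 1000 counts, 4380 of 8251 genes were on the higher side.

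The highest and lowest values of this list were those of Mex3a and Bcl6. Mex3a, an RNA-binding ubiquitin ligase gene, had 611 and 1039 counts and stood at 0.66 (log2). Fam98a was at 0.34 and the cold-inducible Rbm3 at 0.26. At the other end Bcl6, a transcriptional repressor gene, had 4434 and 3072 counts and stood at -0.64. Akap8l was at -0.53 with 4349 and 3253 counts, and Ss18l1 at -0.22. The RNA-binding protein genes Taf15 at -0.06 and Ewsr1 at -0.07, chosen after their values were seen, were near 0. Slc7a2, whose nuclear-retained transcript in mouse cells is a known paraspeckle RNA, stood at 0.07 with 24402 and 27601 counts. Reads of its mRNA and of the retained form share a row.

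**Figure D5:**
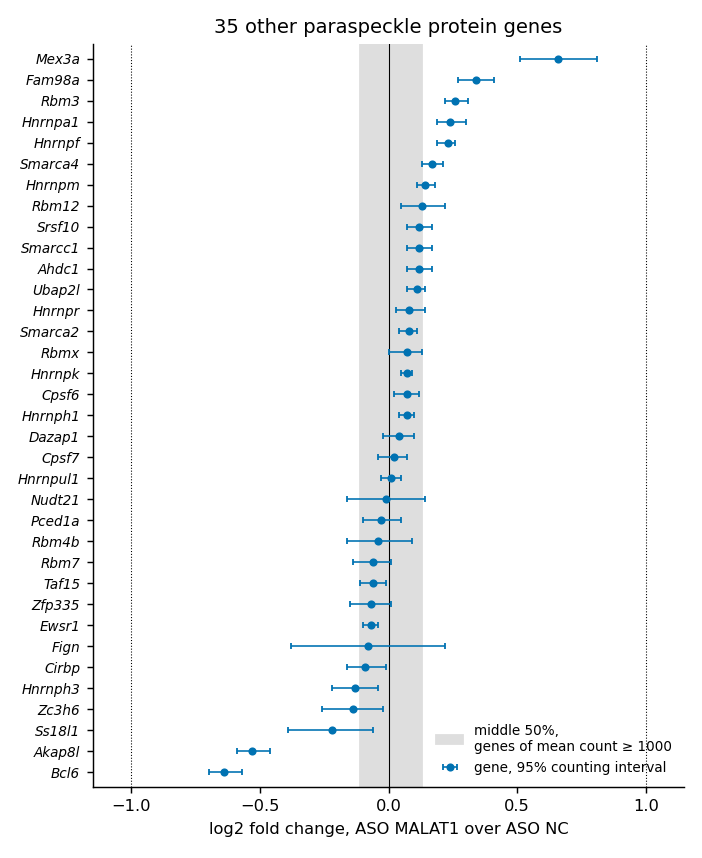
Log2 fold change of 35 of the 36 other paraspeckle protein genes with 95% counting intervals, in order of their value, with dotted lines at 2-fold and a band for the middle 50% of genes with a mean of at least 1000 counts. The values run from -0.64 for Bcl6 to 0.66 for Mex3a, and none reaches a dotted line.

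Genes for the maturation of the Malat1 3′ end were listed in the same way: RNase P subunits, the tRNA nuclease Elac2, the CCA-adding enzyme Trnt1 and Mettl16, which binds the triple helix. Of 13 compared, 1 was past the threshold, against 9.85% of all genes tested, and the median was -0.09. The exception was Rpph1, the RNA subunit of RNase P, with 2 and 20 counts, a ratio of 9.29 whose 95% counting interval runs from 2.26 to 82.0. Elac2 was at -0.21, Mettl16 at -0.18 and Trnt1 at 0.01, the 3 named after their values were seen.

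Of 14 genes for proteins reported to bind Malat1, 0 were past the threshold, and the median was 0.14, with 12 on the higher side. A mean of at least 1000 counts was reached by 13 of them. In that class 0.739% of genes were at least 2-fold lower, the median was 0.01, and 4380 of 8251 were on the higher side. Ezh2, the methyltransferase of Polycomb complex PRC2, stood at 0.45 (log2) with 2169 and 3184 counts. The splicing factor gene Srsf1, with 2221 and 3244 counts, and Tead2, a partner of YAP, were both at 0.44. Srsf5 had 27745 counts in each library, which is -0.11 after scaling, and Tead1 was at 0.03.

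No other nuclear lncRNA compared was as low as Malat1. Of 10 listed, 6 were compared, and 0 were past the threshold, against 9.85% of all genes tested. The median was -0.04, with 4 on the lower side, 3 intervals below 0 and 1 above 0. Of all genes tested, 53.1% had an interval without 0. Kcnq1ot1, which silences an imprinted cluster, was the lowest at -0.37 (95% interval -0.49 to -0.26) with 1336 and 1112 counts, and Pvt1 was at -0.14. Airn was at -0.05 beside Xist at -0.04, and Tug1 at 0.13 and Meg3 at 0.16 were the highest. Tsix, Rmst and Miat had 0 counts in both libraries, which allows at most 0.0520 CPM (control) and 0.0483 CPM (knockdown).

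Adipocyte markers were lower together with Malat1 and Neat1, while most fibroblast and osteochondral markers compared were on the higher side. All 14 adipocyte markers compared, such as Adipoq at -1.30 and Plin1 at -1.23, were lower in the knockdown library, with a median of -1.23. Of these, 12 were past the threshold, while 6.02% of all genes tested were at least 2-fold lower. A mean of at least 1000 counts was reached by 13 of the 14, and in that class the share was 0.739%. Not past the threshold were Plin4 at -0.33 and Slc2a4 at -0.71, on 26 and 17 counts with an interval of -1.69 to 0.22 that holds 0. The summed level of the 14 was 8232 CPM against 3583 CPM. Fibroblast markers had a median of 0.16 over 11 compared, with 18854 and 20455 CPM in sum and Dlk1 at 0 in both. Cd34 at 1.73 (19 and 69 counts) was the 1 of 11 past the threshold, against 9.85% of all genes tested. Among them Dcn, the gene of the matrix proteoglycan decorin, was on the lower side at -0.88 (2247 and 1315 counts), and 9 were on the higher side. All 5 osteochondral markers compared were on the higher side, 3 with an interval above 0 and 0 with one below it. Of all genes tested, 53.1% had an interval without 0. The osteochondral markers had 155 and 212 CPM in sum, mostly from Sox9 at 114 and 162 CPM. Ibsp at 1.24 was the 1 of 5 past the threshold, against 9.85% of all genes tested. It had 6 and 16 counts and an interval of -0.12 to 2.95 that holds 0. Acan was at 0, and Sp7 (2 and 1 counts) and Bglap (3 and 0 counts) had too few counts to compare. Among muscle markers Myod1, Myog, Myf5 and Acta1 were at 0, 3 of 9 were compared, and their median was -0.62 although the sums were 237 and 266 CPM, mostly from Acta2. In bulk RNA, fewer cells of a type and less of an RNA per cell cannot be told apart. The part of the adipocyte difference in the Neat1 value was not tested. Rpl23, the study's qPCR reference, was at 0.02 with an interval of -0.01 to 0.05.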

How the data were processed

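Counts of reads per gene symbol were deposited by the authors without normalization, for 1 library of each condition made from rRNA-depleted total RNA with a directional kit. The submitters' processing notes name HISAT2 and build GRCm38, while the counting tool, annotation and use of strand are not given in the sources used here. GENCODE M21 and RefSeq, both on GRCm38, gave positions, lengths and gene order, and 96.2% of compared symbols matched RefSeq.

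Counts were scaled by TMM (edgeR 4.0.16, R 4.3.3) over genes with at least 10 summed counts. Log2 fold changes had a prior count of 0.5 and 95% Clopper-Pearson intervals (scipy 1.17.1, Python 3.11.15), which cover counting error only; intervals of changes in within-library ratios used the normal approximation with 1.96 standard errors. Tests that estimate spread need replicates, so none was run. The calculation was checked on simulated counts that held known changes and counting error only. That check says nothing about variation between cultures. Copies were sought with BLAST+ 2.17.0 at 95% identity over 200 bases.

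The genes named are the members, overlapping genes, the 5 neighbours on each side of Malat1, list genes past 2-fold or otherwise the 3 highest and 3 lowest with a mean of at least 100 counts, the 4 genes nearest to Malat1, Rpl23 and Slc7a2, with exceptions stated, and 3 genes under this rule or in the lists are not reported here. The members and lists were chosen with earlier results of these data known. Alternatives were library totals, DESeq2 1.42.0 size factors, upper-quartile factors, Rpl23, other prior counts, filters and thresholds, and edgeR's exact test with a preset coefficient of variation.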

Additional observations from a re-analysis of the deposited data

How the results depend on the processing

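The log2 fold change of Malat1 was -1.99 with library totals and -2.04 with scaling to Rpl23, outside its counting interval. Neat1 was at -0.46 with library totals and -0.50 with scaling to Rpl23, also outside its interval of -0.49 to -0.47. Both genes stayed within their intervals under the other scalings and prior counts. Direction was the same for all 8 genes under every scaling, although Tardbp was at 0.00 when scaled to Rpl23, and the median of all genes moved by at most 0.02. Malat1 was the 1 member past 2-fold, also at 1.5-fold, under every scaling. Calls by edgeR's exact test rest on a p-value adjusted for the number of genes, with a threshold of 0.05. At a preset coefficient of variation of 0.1 or 0.2 Malat1 was the 1 member called by that test. With 0.4 it called 0 members, which does not mean that Malat1 was no longer past 2-fold. Over all genes that test called 667, 117 and 1 at 0.1, 0.2 and 0.4, against 1710 past 2-fold. Without a filter on low counts 5913 genes were past 2-fold, and 602 when both libraries had to reach 10 counts. These filters gave 1 other paraspeckle gene without a filter, and for 3′ end maturation 2 genes without a filter and 0 with the stricter one, because Rpph1 had 2 control counts. With 5 neighbours on each side, 0 were past 2-fold, since Slc22a20 is ninth. Chosen after the data were seen, intervals widened for an assumed culture-to-culture coefficient of 0.1, 0.2 or 0.4 ran for Malat1 from -2.42 to -1.61, -2.81 to -1.21 and -3.61 to -0.42. For Neat1 they ran from -0.88 to -0.08, -1.28 to 0.32 and -2.08 to 1.12, so the Neat1 difference exceeds only the smallest allowance. No paired analysis was possible because each condition has 1 library. The true variation between cultures cannot be measured with 1 library per condition.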
